A study of Arabidopsis thaliana with 8 samples.

Results

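A set of 214 array probes was at least 4-fold brighter than in control in all 3 treated groups of Arabidopsis thaliana seedlings: those of a line with an ANAC096 construct, those given abscisic acid (ABA), and those with both. These 214 probes were chosen from 43603 probes for plant transcripts. For the choice, log2 signals were set against the 75th percentile of each array, averaged per probe and per group, and a probe was taken if each treated group exceeded control by at least 2 on the log2 scale and its highest group mean was at least -6. The rises over control are therefore what chose the probes, and they are given as a description without a test. The files give only the array maker's identifier of each probe, with no gene beside it, and the reference gene table held 0 of these identifiers, so no gene names, functions or sequences are given, and neither the ANAC096 transcript nor tissue markers were analysed here.

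ABA is the hormone through which plants respond to drought and osmotic stress. It is bound by receptors that then hold back protein phosphatases, which frees kinases to activate transcription factors of the bZIP class at ABA-responsive genes. NAC proteins such as ANAC096 are another plant-specific family of transcription factors, and many of them take part in stress responses. The pTA vectors are used for inducible expression. Dexamethasone, a synthetic steroid, activates an artificial transcription factor encoded on the vector, which then drives the inserted gene. The series' title speaks of a NAC factor that cooperates with bZIP factors.

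Whole seedlings of the Columbia accession (Col-0), 12 days old, came from liquid MS cultures kept at 23 °C in a cycle of 16 h light and 8 h dark. Each of the 4 groups had 2 arrays. The control group carried the empty pTA vector and had 30 µM dexamethasone for 1 h. The ANAC096 group carried pTA-ANAC096 and had the same dexamethasone. The ABA group carried the empty vector and had dexamethasone for 1 h with 2 µM ABA in the last 30 min. The ANAC096+ABA group carried pTA-ANAC096 and had dexamethasone and ABA on that schedule. All groups, control included, thus carried a vector and had dexamethasone, and no array came from untransformed or untreated plants. The number of independent transgenic lines is not given in the sources used here. For short, the ANAC096 line is called a treatment below.

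The 8 arrays shared 1 slide, with the arrays without ABA in slide row 1 and those with ABA in slide row 2, and the lines in separate slide columns. Row and ABA, and column and line, cannot be told apart. Between 75.1% and 79.8% of all probes were well above background per array, and no spot was saturated. Spike-in controls (E1A transcripts) were not level on the 75th percentile scale: without ABA they stood at 0.04 ± 0.0049 in the empty vector and 0.66 ± 0.09 in the ANAC096 line, and with ABA at 0.31 ± 0.05 and -0.05 ± 0.17 in these lines (mean log2 level ± SD, n = 2). The scale to which signals are set therefore matters, and the counts of the 3 comparisons among treated groups are also given with spike-in scaling, with the share of all tested probes on that scale. In whole seedlings, more cells that hold a transcript and more transcript per cell cannot be told apart.

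In control seedlings the 214 probes were dim. Their median log2 level was -4.02 and -4.04 on the control arrays, against -1.29 on both for all tested probes. On the ANAC096 arrays the median was -0.93 and -0.91, and on the ABA arrays it was -0.90 and -0.90. It reached 0.35 and 0.36 on the ANAC096+ABA arrays, so the set passed from well below the middle of the array in control to above it in each treated group. On every array of a treated group, each of the 214 probes was brighter than on both control arrays, and the smallest such gap was 1.23 on the log2 scale. This separation held for 16.6% of all tested probes, and the rule used the same contrasts, so nothing is read from it.

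The median rise over control was 7.01-fold in ANAC096, 6.95-fold in ABA and 15.0-fold in ANAC096+ABA. The middle of the set, from the lower to the upper quartile, ran from 2.33 to 3.58 on the log2 scale in ANAC096, from 2.31 to 3.61 in ABA and from 3.27 to 4.98 in ANAC096+ABA. At least 16-fold rises were seen for 37 probes in ANAC096, for 37 in ABA and for 101 in ANAC096+ABA, and 27 probes exceeded 16-fold in all 3 groups. Each of the rule's steps narrowed the choice. A rise of at least 4-fold over control was met by 799 probes in ANAC096 (1.83% of all probes), by 544 in ABA (1.25%) and by 1174 in ANAC096+ABA (2.69%). The single treatments shared 248 of these, which is what the rule asked for, and both comparisons use the same control arrays. Of the 248, 21 did not reach 4-fold in ANAC096+ABA, and the level minimum removed a further 13.

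A probe that is not well above background in control has only a lower bound for its fold change. On both control arrays 165 of the 214 probes were well above background, 13 were so on 1 and 36 on neither. For these 36, the treated level was set against the higher of the control signal itself and the lowest signal that counted as well above background. By this bound, all 36, well above background on both ANAC096+ABA arrays, rose at least 3.27-fold there, with a median bound of at least 13.6-fold and a highest of at least 136-fold. The same bound was at least 4-fold for 34 of 36 probes in ANAC096+ABA, for 25 of 35 in ANAC096 and for 22 of 29 in ABA. All 214 probes entered the tests, and 162 of them were well above background on all 8 arrays.

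Among those 162, A_84_P762197 had the largest of the smallest rises. Its log2 levels were -2.78 and -2.52 in control, 2.69 and 2.52 with ANAC096, 2.49 and 2.56 with ABA, and 4.61 and 4.46 with both. The arrays with a single treatment overlapped each other and lay far above control, and the combination stood apart above both. These levels are rises of 38.2-fold, 36.2-fold and 145-fold over control. The next probe by this order, A_84_P841862, read -7.00 and -7.11 in control, -2.08 and -2.20 with ANAC096, -1.51 and -1.51 with ABA, and 0.29 and 0.31 with both. Here the ABA arrays lay above the ANAC096 arrays, and no groups overlapped. Its rises were 30.1-fold, 46.7-fold and 164-fold.

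At the other edge of the set, membership turned on small differences. The members closest to the threshold, A_84_P786287 and A_84_P20862, had smallest rises of 2.01 and 2.01 on the log2 scale, both in ABA. Just outside it lay A_84_P817749 and A_84_P220448, at 1.999 in ABA for the former and 1.997 in ANAC096+ABA for the latter. Within 0.2 of the threshold there were 59 probes inside and 60 outside, so the set has no natural edge. Set to the spike-ins, the rule chose 120 probes. Background correction by the normexp method gave 142 and the values deposited by the authors gave 138, and 89 of the 214 were chosen under each of these and quantile normalization too.

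The differences between ANAC096+ABA and each single treatment use no control array, and they ask whether the combination went beyond what each treatment gave alone. The SE and adjusted p of each probe do draw on the control arrays, since all 8 arrays share an estimate of spread. Against ANAC096, 113 probes were higher with the combination by at least 2-fold at an adjusted p under 0.05 (limma, Benjamini-Hochberg over all 34639 tested probes), which is 52.8% of the set against 2.1% of all tested probes, and 0 were lower by 2-fold, against 4.14%. Against ABA, 104 probes were at least 2-fold higher (48.6%, against 3.97%) and 1 was lower (against 3.35%). Of the 113 and 104 higher probes, 111 and 97 were well above background on all 4 arrays compared, with groups that did not overlap. No matching share of all tested probes is given, so nothing about the set is read from these counts. Neither ABA array was well above background for 6 of the 214 probes, whose differences from ABA rest on dim signal. Probes well above background on both control arrays had median log2 differences of 1.03 from ANAC096 and 0.92 from ABA. Those so on neither had 1.23 and 1.68. At any fold, 181 were called higher than in ANAC096 and 5 lower, against 22.1% and 22.9% of tested probes, and 185 higher than in ABA and 6 lower, against 21.9% and 22.5%. The median log2 difference over the 214 probes was 1.11 against ANAC096 and 1.00 against ABA, where the medians of all tested probes were -0.01 and -0.02 and the median SE of a probe in the set was 0.07. Without ANAC096 replicate 1, 2 probes were called at least 2-fold lower than in ANAC096, and without ANAC096+ABA replicate 1 no probe was called at least 2-fold lower than in ABA.

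The choice of the probes bears on these counts, although no control array enters the differences themselves. A dim probe could also meet the level minimum through its ANAC096+ABA level alone. Since the rule asked for a 4-fold rise in the combination, a 2-fold fall from ANAC096 was in reach only of the 96 probes that ANAC096 raised at least 8-fold, and a 2-fold fall from ABA only of the 89 that ABA raised so far. Nothing is therefore read from the few lower probes. Without the condition on the combination, and with the level minimum applied to the other groups, 224 tested probes were raised at least 4-fold by each single treatment. Of these, 47.8% were at least 2-fold higher in the combination than in ANAC096 and 9 probes (4.02%) were lower, while 97 (43.3%) were at least 2-fold higher than in ABA and 3 (1.34%) were lower. Their medians were 0.97 and 0.89. The shares of higher calls lay above the 2.1% and 3.97% of all tested probes, and those of lower calls lay near or below theirs. This is no independent check. The 224 probes were chosen by their ANAC096 and ABA levels, which also enter the comparisons. They also largely repeat the set: before the level minimum, 227 of 248 such probes met the condition on the combination as well. All tested probes were not chosen in this way, so the gap to their shares is given as a description only.

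With spike-in scaling, more of the 214 probes and more of all probes were higher in the combination. The 113 became 179 (83.6%), where the share of all tested probes rose to 17.7%, and the 104 became 151 (70.6%), against 8.59%. At 2-fold, 0 and 1 were lower, against 1.6% and 1.78%. At any fold, 208 were higher than in ANAC096 and 0 lower, against 82.2% and 3.83%, and 202 were higher than in ABA and 1 lower, against 46.2% and 5.57%. The medians of the set rose to 1.83 and 1.36 and those of all tested probes to 0.71 and 0.34. Spike-in scaling subtracts 1 value per array, so it moves all probes alike, and nothing about the set is read from this shift.

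Against both single treatments at once, 87 of the 214 probes were at least 2-fold higher, where 1.02% of all tested probes were. Another 26 passed at 2-fold against ANAC096 alone, 17 against ABA alone and 84 against neither. Over all 34639 tested probes, 729 were at least 2-fold higher than in ANAC096 and 1374 than in ABA, and 354 of these were higher than in both. At any fold, 175 probes were called higher than in both, against 11.7% of all tested probes. Both ANAC096+ABA arrays lay above the other 4 treated arrays for 186 of the 214 probes, against 22.3% of all tested probes. The rule's condition on the combination favours this order, and so does the level minimum, which a probe could meet through the combination alone. Nothing is read from this order.

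Of the probes measured in both groups, A_84_P22954 rose furthest from ANAC096 to ANAC096+ABA. It read -8.64 and -7.45 in control, -3.17 and -3.25 with ANAC096, -2.60 and -2.63 with ABA, and -0.05 and -0.15 with both. The control replicates were 1.19 apart, near background, and the treated replicates lay within 0.10 of each other. The difference from ANAC096 was 3.11 (8.61-fold, SE 0.35, limma adjusted p 9.2e-04) and that from ABA 2.51 (SE 0.35, limma adjusted p 1.9e-03). A_84_P22733 had the next rise, 2.78 from ANAC096 (6.88-fold, SE 0.07, limma adjusted p 4.5e-06). On the ANAC096 arrays it read -4.72 and -4.71, on the ABA arrays -4.29 and -4.18, and on the ANAC096+ABA arrays -1.96 and -1.91. It was not well above background on either control array.

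The largest rises from ABA to ANAC096+ABA among measured probes were those of A_84_P797324 and A_84_P756407. The former stood at -4.74 and -4.45 in ANAC096, at -5.66 and -5.70 in ABA, and at -2.38 and -2.21 in ANAC096+ABA, while neither control array was well above background. It rose by 3.38 over ABA (10.4-fold, SE 0.11, limma adjusted p 7.5e-06) and by 2.30 over ANAC096 (SE 0.11, limma adjusted p 2.9e-05). The latter read -5.25 and -5.34 in control, -1.68 and -1.72 with ANAC096, -3.23 and -3.19 with ABA, and -0.10 and -0.13 with both. Its levels formed 4 separate steps, and it rose by 3.09 over ABA (8.54-fold, SE 0.05, limma adjusted p 2.0e-06). A set member with a high level throughout, A_84_P22571, read 1.47 and 1.30 in control, 3.58 and 3.89 with ANAC096, 4.38 and 4.33 with ABA, and 4.94 and 4.93 with both. Here ABA lay above ANAC096, and the steps to the combination were smaller, at 1.20 over ANAC096 and 0.58 over ABA (SE 0.11 and 0.11, limma adjusted p 4.2e-04 and 7.2e-03).

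The further rise was smaller among bright probes. Ranked by mean level over the treated groups, the lowest 72 probes had median differences of 1.14 from ANAC096 and 1.30 from ABA, the middle 70 had 1.27 and 1.23, and the highest 72 had 0.86 and 0.66. At least 2-fold rises over ABA were called for 43, 42 and 19 of them. These classes were not compared by a test, and their levels were read from the same arrays as the differences.

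Probes raised by only 1 of the single treatments give a frame for these values. Of 130 tested probes raised at least 4-fold by ABA but not by ANAC096, 65 exceeded their ANAC096 level in the combination by 2-fold or more, while 16.2% were higher than in ABA by as much and 12.3% lower. Of 328 raised at least 4-fold by ANAC096 but not by ABA, 52.4% were at least 2-fold higher in the combination than in ABA. Only 7.62% of them were higher than in ANAC096, and 36.9% were lower by 2-fold. Neither set had to be raised in the combination, so they are set beside the 224 probes chosen without that condition, of which 47.8% were higher than in ANAC096 and 43.3% higher than in ABA. The filters still differ: the sets raised by only 1 treatment could meet the level minimum through the combination, and the 224 could not. The difference between these sets was not tested, since each was chosen by its values.

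Between the single treatments, the probes of the set differed little on balance. The median of ANAC096 minus ABA was -0.02 on the log2 scale, with quartiles at -0.36 and 0.30, and 191 of the 214 probes (89.3%) lay within 2-fold, against 93.8% of all tested probes. The rule asks for a rise in both groups, which by itself draws these values together. At 2-fold, 13 probes (6.07%) were called higher in ANAC096, against 4.01% of tested probes, and 7 higher in ABA, against 1.52%. At any fold these were 53 and 67 of 214, against 23.6% and 22%, and 94 did not pass the threshold. The balance depended on the scale. With spike-in scaling the 13 became 7 (3.27%, against 2.43% of all tested probes) and the 7 became 21 (9.81%, against 4.74%), so the balance turned towards ABA. At any fold the counts became 20 and 109, against 7.1% and 47.6%. The median became -0.37, where that of all tested probes was -0.34. The 2-fold counts were 7 and 8 under normexp correction, against 832 and 353 of all 34639 tested probes. With the values the authors deposited they were 6 and 6, against 840 and 419.

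A_84_P573240 had the largest measured excess in ANAC096. It read -4.89 and -5.08 in control, -1.23 and -1.16 with ANAC096, -2.88 and -2.86 with ABA, and -1.43 and -1.49 with both. The difference between the single treatments was 1.67 (3.18-fold, SE 0.07, limma adjusted p 3.0e-05), and the combination lay slightly below ANAC096, by -0.26 (limma adjusted p 3.1e-02). A_84_P756407, described above, followed with 1.51 (SE 0.05, limma adjusted p 1.3e-05). In the opposite direction, A_84_P205328 read -5.01 and -4.80 in ANAC096 and -2.76 and -2.87 in ABA, a difference of -2.09 (SE 0.28, limma adjusted p 3.3e-03). It was also the 1 probe at least 2-fold lower in ANAC096+ABA than in ABA, by -2.15 (SE 0.34, limma adjusted p 5.7e-03), but 1 of the ANAC096+ABA spots was marked as an outlier and left out, so that this value rests on a single ANAC096+ABA array at -4.97. A_84_P233899 read -3.70 and -3.66 in ANAC096 and -2.19 and -2.16 in ABA, a difference of -1.51 (SE 0.05, limma adjusted p 3.0e-05), and reached -1.61 and -1.61 in ANAC096+ABA.

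A minority of the set was brightest in a single treatment. The highest group mean was in ANAC096+ABA for 193 probes, in ANAC096 for 13 and in ABA for 8. Both ANAC096 arrays lay above the other 4 treated arrays for 9 probes and both ABA arrays for 5, against 24.3% and 24.2% of all tested probes, and the rule's condition on the combination holds these counts down. In 8 probes the combination was the lowest of the treated groups, and 2 probes were called lower in it than in both single treatments. The rule's condition holds these 2 counts down as well. No matching share of all tested probes is given, so nothing is read from them. The member with the highest mean level of all, A_84_P18573, showed no called difference among the treated groups: it read 4.32 and 4.14 in ANAC096, 4.50 on the 1 ABA array left after an outlier spot was dropped, and 4.81 and 4.81 in ANAC096+ABA. Its difference from ANAC096 was 0.58 (SE 0.19, limma adjusted p 6.3e-02) and that from ABA 0.31 (SE 0.24, limma adjusted p 3.4e-01).

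How the combined level relates to the single ones depends on whether effects are added as log2 changes, which multiplies folds, or as signal. On the log2 scale the combination fell short of the sum for 210 of the 214 probes, with a median of -1.89 and quartiles of -2.49 and -1.32. Added to the control level as signal on the linear scale, the increases over control in ANAC096 and in ABA came close to the combined level. The measured ANAC096+ABA level was 1.12 times this linear sum at the median, with quartiles at 0.789 and 1.52 times. Within 1.5-fold of the linear sum lay 132 of the 214 probes (61.7%), against 75.6% of all tested probes, most of which changed little. Another 56 exceeded it by more than 1.5-fold and 26 fell below it by more than 1.5-fold. With spike-in scaling the median became 1.63 times the linear sum and the log2 shortfall -0.90.

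These ratios involve the control arrays and the choice of probes, so they are given without a test. The rule also asked for a rise in the combination, which removes probes far below the sum. Over the 224 probes chosen without that condition, the median log2 ratio to the linear sum was 0.03, with 128 within 1.5-fold and 44 more than 1.5-fold below. Individual probes departed from either kind of sum. A_84_P762197 reached 1.98 times its linear sum, A_84_P841862 2.16 times and A_84_P797324 3.62 times, while A_84_P573240 stood at 0.673 times and A_84_P22571 at 0.981 times.

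Replicate arrays were close for these probes. The median gap between replicates was 0.12 on the log2 scale in control, 0.07 with ANAC096, 0.05 with ABA and 0.05 with both, against 0.10, 0.07, 0.05 and 0.07 over all tested probes. Probes spotted in duplicate made up 42.1% of the set and 41.3% of the tested probes. The 90 probes with 2 spots had median differences of 1.22 from ANAC096 and 1.00 from ABA in the combination, and the 124 with 1 spot had 1.06 and 1.01. For 8 of the 214 probes, spots marked as outliers left 1 or more arrays without a value.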

How the data were processed

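The authors deposited a scanner file for each array, holding linear spot intensity values made, per the file headers, with Feature Extraction 10.7.1.1 and protocol GE1_107_Sep09 on array design 031025. The other deposited columns used here are flags, marked 0 or 1, for spots well above background, saturated or outlying. Their deposited value table, in log2 units, was returned within 5.0e-09 by quantile normalization of the log2 median signals and served as an alternative.

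Membership was computed from log2 processed signals of all 61657 non-control spots, minus the array's 75th percentile over all 62976 spots, controls included. For the tests, outlier spots (376 to 1230 per array) were dropped, and limma 3.58.1 (R 4.3.3) was run on the 34639 probes that some group had well above background on both of its arrays (lmFit, eBayes, group means of all 8 arrays, 4 residual degrees of freedom). Benjamini-Hochberg adjustment covered all tested probes, and a call needed an adjusted p under 0.05. The fit was tested on simulated data.

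Titles gave groups and replicate numbers, and the design text speaks of biological replicates without saying how they were grown. The p-values thus reflect only the spread among the arrays at hand, whose number limits the precision. An exact permutation test of 2 against 2 arrays cannot give a two-sided p below 0.33. Spike-in scaling used the 7 of 10 E1A probes well above background on every array.

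Named probes are, per comparison among treated groups, the 2 largest rises and falls of at least 2-fold among probes above background on all 4 arrays with groups that do not overlap; the 2 with the largest smallest rise over control; the 2 on each side of the rule's threshold; and the 2 brightest. The fixed gene lists and tissue markers were not analysed here, for want of gene names. The members, lists and tests were chosen with earlier results of these data known, and the linear sum, the set without the condition on the combination and the sets raised by 1 treatment after seeing the values.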

Additional observations from a re-analysis of the deposited data

How the results depend on the processing

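The 2-fold counts in the 3 comparisons among treated groups, their medians, the number of probes and the sums were recomputed on other scales, with other filters and with each array left out. The medians and sums kept their sign, but the balance of calls between ANAC096 and ABA, 13 higher and 7 lower, did not hold on every scale. With spike-in scaling it became 7 and 21 (2.43% and 4.74% of all tested probes), 179 probes were higher than in ANAC096 (17.7% of all tested), 120 probes met the rule, and the medians were 1.83, 1.36 and -0.37 (against ANAC096, against ABA, and ANAC096 against ABA). The log2 shortfall was -0.90 and the log2 ratio to the linear sum 0.70. With normexp correction the first medians were 0.98 and 0.90, 142 probes met the rule, and the sums gave -1.57 and 0.11. On that scale 7 probes were higher and 8 lower in ANAC096 than in ABA, against 832 and 353 of all 34639 tested. The authors' table gave medians of 1.02, 0.94 and -0.040, 138 probes by the rule and a shortfall of -1.52. In its last comparison 6 probes were higher and 6 lower, against 840 and 419 of all 34639 tested. Quantile normalization gave 1.15 and -0.035 for the first and last median and -1.86 for the shortfall. Among the 162 probes above background on all 8 arrays, medians were 1.04, 0.91 and -0.051, and the log2 ratio was 0.11. Of these, 6 were higher in ANAC096 than in ABA, against 952 of all 31117 probes tested with that filter. In the combination 0 were lower than in ABA, against 863. Without the rule's condition on the combination, an alternative added after seeing the data, 9 probes were lower than in ANAC096 and 3 lower than in ABA, and the medians were 0.97 and 0.89.

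Leaving out 1 array gave medians of 1.09 to 1.13 against ANAC096, 0.98 to 1.01 against ABA, and -0.05 to -0.0056 for ANAC096 against ABA. Counts of calls from these fits rest on 1 array in a group, so nothing is read from them. The rule chose 211 to 225 probes, 186 of the 214 in every case, and the sums gave -1.90 to -1.86 and 0.15 to 0.17. Deviations of replicates with the same number were hardly correlated between groups (-0.09 to 0.06), and whether the replicates were paired is not known. With the replicate block, 112 probes were higher than in ANAC096 and 103 higher than in ABA, against 725 and 1370 of all 34639 tested probes. The 8 differences tested for named probes kept direction and call in every setting run for them. Dim signal limits the folds: 49 probes were not well above background on both control arrays.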

Other observations

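In 3 probes of the set, chosen after their values were seen, replicates of a treated group were more than 1 apart on the log2 scale. A_84_P789233 read -6.10 and -2.02 in ANAC096, and A_84_P798595 read -6.84 and -4.05 there. A_84_P52460 read -3.53 and -7.05 in ANAC096+ABA and -6.28 and -7.69 in ABA. All 3 have 1 spot per array, none was well above background in control, and the cause was not tested. In a further 5 probes the control replicates were more than 1 apart.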
